A study of Mus musculus with 155 samples.

Results

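Retinoic acid (RA) response genes were followed in 42 RNA-seq libraries of mouse KH2 cells, an embryonic stem cell (ESC) line with a doxycycline (Dox)-inducible locus. The 9 genes are Cyp26a1, Cyp26b1, Rarb, Stra6, Stra8, Dhrs3, Crabp1, Crabp2 and Aldh1a2. They were listed by name as targets, transport proteins and enzymes of the RA pathway, and all 9 were found among the 55471 genes of the count tables. Each line carried a single extra copy of H3.3 with a SNAP and HA tag, which was WT-H3.3, H3.3K27M, the glioma mutant in which a lysine of the histone tail is replaced by methionine, or H3.3K27L, with leucine in its place. Every library came from cells given Dox. The 32 ESC libraries were grown with leukemia inhibitory factor (LIF) and the 2i inhibitors of MEK and GSK3. There were 8 ESC libraries of each line and 8 of WT-H3.3 cells given GSK343, an inhibitor of the PRC2 methyltransferase, with 2 replicates at each of the 4 Dox times (4, 8, 24, 72 h). The 6 RA-treated libraries came from cells moved to medium with RA and without LIF and 2i, and each line gave a library 24 h and another 72 h after Dox. Dox was added a day after RA, and the time in RA of the libraries taken at 24 h is not given in the sources used here. The 4 libraries of oligodendrocyte progenitor cells (OPCs) came from the WT-H3.3 and H3.3K27M lines, a library of each for 24 and for 72 h of Dox, through embryoid bodies that met RA and purmorphamine for some days before plating in OPC medium. Whether a line was 1 clone is not given in the sources used here.

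RA is made inside cells from retinol, which the membrane receptor STRA6 takes up from its carrier in blood and which dehydrogenases oxidise first to retinal and then, through enzymes such as ALDH1A2, to RA. CRABP1 and CRABP2 carry RA in the cytoplasm, and RA binds nuclear receptors of the RAR family, which sit with RXR partners on RA response elements and switch on nearby genes. Among the genes switched on are those that hold the signal in check, the CYP26 enzymes that oxidise RA and the retinal reductase DHRS3, so the pathway is known for strong feedback in embryos and in ESCs.

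The best-known RA response element is a direct repeat of a short receptor motif with a gap of 5 bases. The promoter windows of RefSeq (GRCm38.p6), which run from 250 bases before an annotated start to 50 bases after it, were searched on both strands for 4 forms of the motif, alone and as repeats. These were AGGTCA together with the form AGTTCA, and also GGGTCA together with the form GGTTCA. Entries were found for 8 of the 9 genes, in 13 windows, and Crabp2 had no entry. A repeat with a gap of 5 bases was in 32 of 32851 windows (0.0974%) and in 2 of the 13, those of Rarb and Cyp26a1. The 250 bases before the start are shown for these genes, with that repeat in capitals, and for Cyp26b1, in whose window none of the motifs was found. Repeats with a gap of 1 base (0.222% of all windows) or 2 bases (0.268%) were in none of the 13. A single motif, including those inside repeats, was in 4 of the 13 and in 43.7% of all windows. The letters describe these windows only, and no binding was measured here.
Rarb, chr14:16575477-16575726, reverse strand: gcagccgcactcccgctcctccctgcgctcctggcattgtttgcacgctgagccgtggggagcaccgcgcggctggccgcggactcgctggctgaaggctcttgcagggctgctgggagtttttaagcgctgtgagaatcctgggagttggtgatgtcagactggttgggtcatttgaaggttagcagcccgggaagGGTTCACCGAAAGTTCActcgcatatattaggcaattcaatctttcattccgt
Cyp26a1, chr19:37697558-37697807, forward strand: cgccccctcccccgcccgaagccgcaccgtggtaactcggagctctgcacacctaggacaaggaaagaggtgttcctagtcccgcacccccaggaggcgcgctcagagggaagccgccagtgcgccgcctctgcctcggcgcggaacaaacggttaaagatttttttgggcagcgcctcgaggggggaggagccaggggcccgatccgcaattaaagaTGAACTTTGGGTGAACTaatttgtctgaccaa
Cyp26b1, chr6:84593811-84594060, reverse strand: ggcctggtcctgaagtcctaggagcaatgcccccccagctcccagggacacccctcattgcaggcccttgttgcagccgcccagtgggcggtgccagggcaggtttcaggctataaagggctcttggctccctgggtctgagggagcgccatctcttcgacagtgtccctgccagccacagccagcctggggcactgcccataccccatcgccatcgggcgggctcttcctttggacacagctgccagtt

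In Rarb the repeat lies at chr14:16575513-16575529, at positions -53 to -37 from the annotated start, and reads in the direction of the gene. In Cyp26a1 it lies at chr19:37697776-37697792, at positions -32 to -16, and reads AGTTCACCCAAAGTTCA on the strand opposite to the gene. The gene bodies in the build of the counts (mm9) are chr19:37772298-37776018 for Cyp26a1, chr6:84521938-84543740 for Cyp26b1, chr14:17263356-17651381 for Rarb and chr9:57911595-58001803 for Stra6. Stra8 lies at chr6:34870163-34889342, Dhrs3 at chr4:144482730-144518112, Crabp1 at chr9:54612555-54620917, Crabp2 at chr3:87752588-87757298 and Aldh1a2 at chr9:71063596-71144050. All 9 are protein-coding genes. Stra6 overlaps Ccdc33 on the opposite strand and the noncoding Gm16131 on its own strand, and its reads could be shared with them, since the use of strand in counting is not given in the sources used here.

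Total counts ran from 68378 to 21161392 in ESCs, from 2239137 to 22269533 in RA-treated cells and from 7499258 to 12387113 in OPCs. The library of 68378 counts, replicate 2 of H3.3K27L ESCs at 72 h, stood apart, and the next lowest held 1247934. Levels are in CPM, counts of a gene scaled to a common library size. Among ESCs, a lowest level of 0 CPM in Dhrs3, Crabp1, Crabp2 or Aldh1a2 was that of this library, in which 3 counts are 40.6 CPM. The labels call the RA-treated cells neural progenitors. Their neural progenitor markers summed to between 178 and 509 CPM at 24 h and between 85.6 and 150 CPM at 72 h, against 93.1 to 306 CPM in ESCs, for 8 markers none of which was at 0 in all libraries of a group. Of the 6 that could be tested, 5 were called higher than in ESCs at 24 h and 4 at 72 h. The 9 markers of extraembryonic endoderm, none at 0 either, summed to between 2570 and 19100 CPM at 24 h and between 1390 and 4860 CPM at 72 h, against 60.9 to 192 CPM in ESCs, and all 7 that could be tested were called higher at both times. Col4a1 alone held 1570 to 12600 CPM of that sum at 24 h and 718 to 2680 CPM at 72 h. It was not among those tested. The sum of 10 pluripotency markers was at least 3680 CPM in ESCs and at most 369 CPM after RA, with all 9 that could be tested called lower. Tubb3, a neural progenitor marker, averaged 105 CPM in the 24 ESC libraries without GSK343. After RA it averaged 16.7 CPM at 24 h and 20.1 CPM at 72 h. The neural sum at 72 h did not exceed the ESC range. Since some markers of both cell types were called higher, the cells are called RA-treated cells here. In these bulk libraries, fewer cells of a type and less RNA per cell cannot be told apart, and neither can RA and the loss of LIF and 2i. All CPM were scaled with TMM factors. Levels of different genes are not compared, since libraries were made with a 3′ end kit or a whole-transcript kit and the sources used here do not say which library had which.

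RA-treated cells were compared with ESCs of their own line. The pooled 24 and 72 h libraries served as the 2 RA-treated libraries of a line, as in the methods of the study, and a gene was called at a Benjamini-Hochberg adjusted p under 0.05, if its fold change was also more than 2 or less than 0.5, in edgeR's quasi-likelihood test. In WT-H3.3 cells, 8 of the 9 genes were called higher, as were 22.4% of all genes tested. In H3.3K27M cells all 9 were called higher (23.6% of all genes), and in H3.3K27L cells 8 of the 9 (22.1% of all genes). None was called lower. The exceptions were Crabp1 in WT-H3.3 cells and Aldh1a2 in H3.3K27L cells. The median log2 fold change of the 9 genes was 5.25 in WT-H3.3 cells, against -0.01 for all genes tested. The 3 comparisons share no library. Cyp26a1, Cyp26b1, Rarb and Stra6 were at trace levels in ESCs and passed the filter on low counts through the RA-treated libraries. A call of theirs could only be higher, so their calls and p-values are no independent support, and the median includes them.

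**Figure D1:**
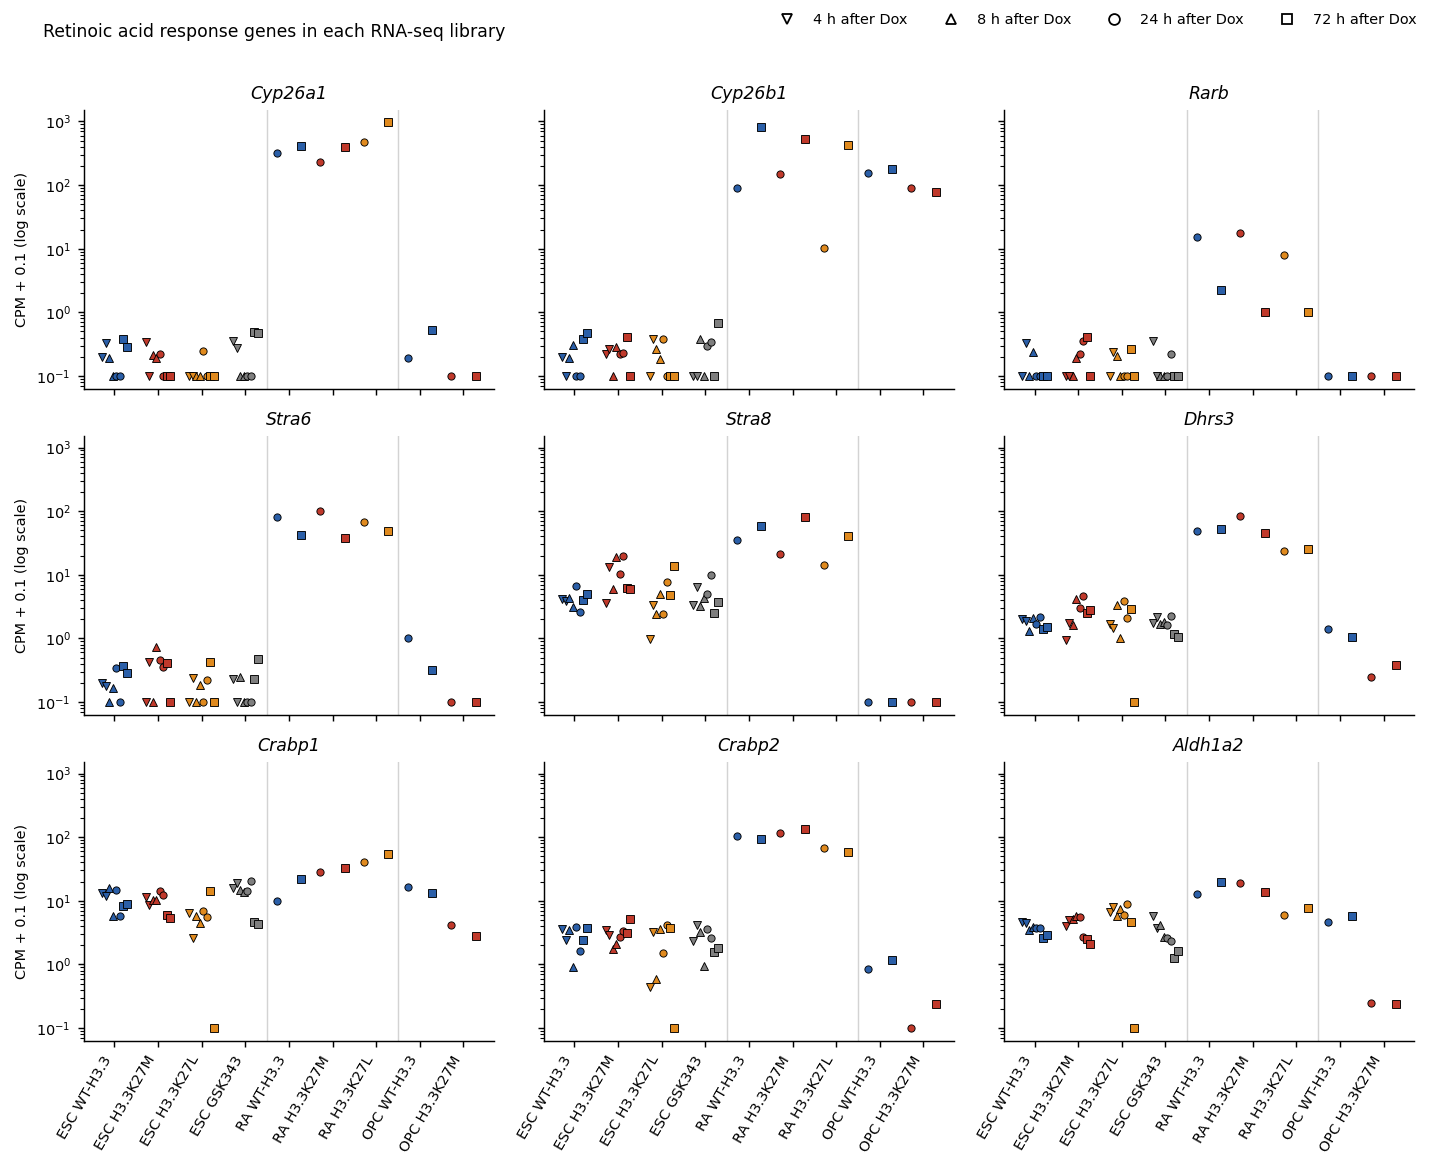
Level of each gene in each of the 42 libraries, in CPM with 0.1 added, on a log axis. Blue points are WT-H3.3, red points the K27M line, orange points the K27L line and grey points WT-H3.3 cells with GSK343, and symbols mark the time after Dox. Cyp26a1 stands at 233 CPM or more in every RA-treated library and at 0.429 CPM or less in every other library, while Cyp26b1 stays high in OPCs.

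Cyp26a1 and Cyp26b1, the enzymes that break RA down, went from traces in ESCs to at least 10.2 CPM in every RA-treated library. Cyp26a1 ran from 0 to 0.393 CPM over the 32 ESC libraries, with a median of 0 and no count in 18 of them. In RA-treated cells it stood at 325 CPM at 24 h and 408 CPM at 72 h in WT-H3.3, and at 233 and 401 CPM in H3.3K27M. In H3.3K27L it stood at 472 and 970 CPM. Every RA-treated library lay far above every ESC library, and that of H3.3K27L at 72 h was the highest. The level of the RA-treated WT-H3.3 library was 2650 times that of the 8 ESC libraries of the line at 24 h, with a 95% counting interval of 1480 to 5320, and 3330 times (1850 to 6690) at 72 h. In H3.3K27M the ratios were 2900 (1240 to 8940) and 5010 (2140 to 15400). The H3.3K27L ratios of 30500 (5480 to 1210000) and 62700 (11200 to 2480000) rest on 1 count, the only one in the 8 ESC libraries of that line. These intervals cover counting error only. The edgeR adjusted p was 2.1e-11 in WT-H3.3, 3.5e-11 in H3.3K27M and 2.3e-11 in H3.3K27L.

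Cyp26b1 ran from 0 to 0.57 CPM in ESCs, with a median of 0.111 and no count in 13 libraries. After RA it stood at 91.4 CPM at 24 h and 828 CPM at 72 h in WT-H3.3, and at 152 and 527 CPM in H3.3K27M. In H3.3K27L it stood at 10.2 and 429 CPM. All RA-treated libraries lay above all ESC libraries, and within every line the library at 72 h was the higher. The H3.3K27L library at 24 h was the lowest by far. Its ratio to the ESC libraries of its line was 82.4 (39.9 to 198), against 631 (365 to 1190) for WT-H3.3 and 1190 (601 to 2750) for H3.3K27M at that time. At 72 h the ratios were 5710 (3330 to 10800), 4110 (2080 to 9540) and 3470 (1750 to 8050) in the same order of lines as the levels above. The adjusted p of edgeR was 1.8e-08, 3.8e-08 and 1.9e-07 in the same order.

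Rarb encodes the RA receptor beta, itself a target of the receptors. It held 18 counts in all over the 32 ESC libraries, with a highest level of 0.315 CPM and no count in 21. At 24 h it stood at 15.3 CPM in WT-H3.3, 17.7 CPM in H3.3K27M and 8.0 CPM in H3.3K27L. At 72 h the levels were 2.14, 0.914 and 0.907 CPM, which are 5, 3 and 3 counts. All 6 libraries lay above the ESC libraries, those at 72 h only a little. The ratios to ESCs at 24 h were 275 (113 to 870), 184 (83.7 to 504) and 129 (48.1 to 490) for the lines in that order. At 72 h they were 38.4 (8.84 to 167), 9.51 (1.54 to 44.5) and 14.7 (2.15 to 86.7). The pooled edgeR test called Rarb in each line (adjusted p 2.2e-05, 3.6e-05 and 4.7e-04), but the call was lost in H3.3K27M without its 24 h library (adjusted p 0.116) and in H3.3K27L likewise (adjusted p 0.138).

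Stra6, the retinol uptake receptor, ran from 0 to 0.64 CPM in ESCs with a median of 0.0932. After RA it stood at 81.4 and 41.6 CPM at 24 and 72 h in WT-H3.3, at 102 and 38.1 CPM in H3.3K27M, and at 67.0 and 49.3 CPM in H3.3K27L. The groups did not overlap, and in each line the level at 24 h was the higher. The ratios to ESCs of the line at 24 h were 664 (367 to 1340), 399 (245 to 699) and 867 (369 to 2680). At 72 h they were 339 (181 to 701), 149 (88.0 to 268) and 638 (268 to 1990). It was called in each line, with an edgeR adjusted p of 2.5e-10, 5.6e-10 and 1.5e-09.

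**Figure D2:**
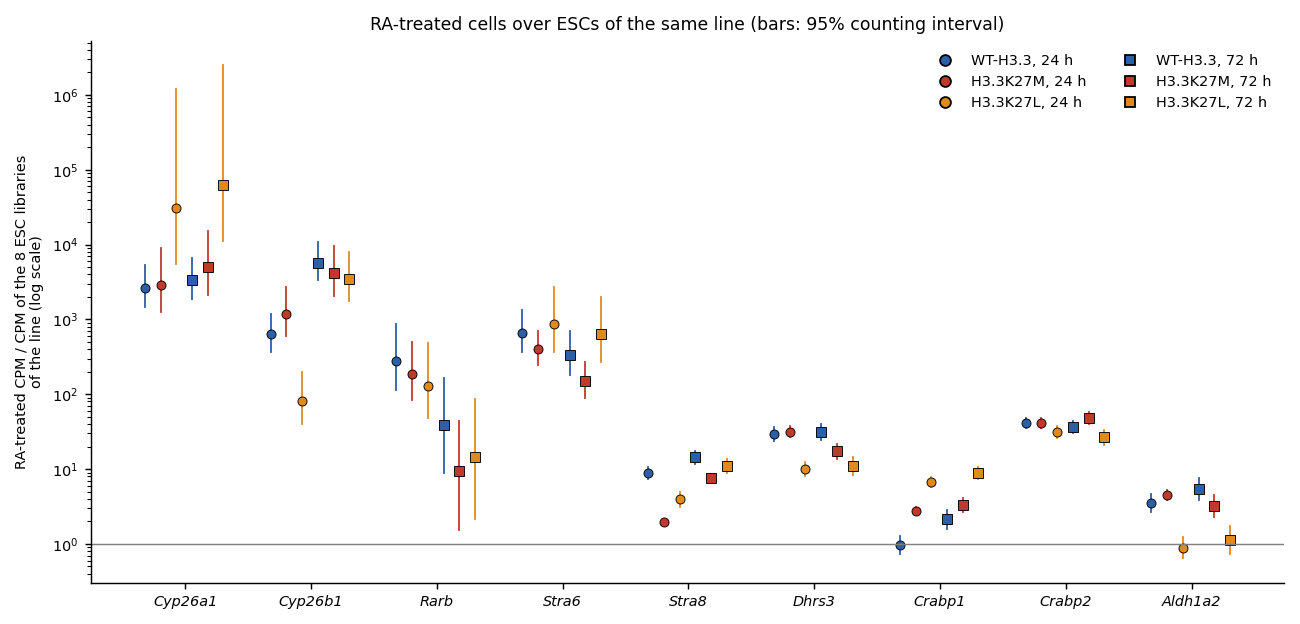
Ratio of the CPM of each RA-treated library to that of the 8 ESC libraries of its line, on a log axis, with circles for 24 h and squares for 72 h after Dox and bars for the 95% counting interval. Of the 54 ratios, those of Crabp1 in WT-H3.3 at 24 h (0.98) and of Aldh1a2 in H3.3K27L (0.895 and 1.14) sit on the line of no change.

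Crabp2 and Dhrs3 were present at low levels in ESCs and rose in every line. Crabp2, the binding protein that hands RA to its nuclear receptor, ran from 0 to 4.99 CPM in ESCs with a median of 2.71. After RA it stood at 104 and 93.0 CPM in WT-H3.3, at 115 and 136 CPM in H3.3K27M and at 67.5 and 57.5 CPM in H3.3K27L. The H3.3K27L libraries were the lowest of the 6 and still above all ESC libraries. The log2 fold change over ESCs was 5.25 (SE 0.49, edgeR adjusted p 4.6e-08), 5.46 (SE 0.49, 2.7e-08) and 4.69 (SE 0.52, 6.1e-07). Dhrs3, the enzyme that reduces retinal back to retinol, ran from 0 to 4.47 CPM in ESCs with a median of 1.67. The RA-treated libraries held 47.9 and 51.4 CPM in WT-H3.3, 83.4 and 45.7 CPM in H3.3K27M and 23.1 and 25.1 CPM in H3.3K27L. Again the groups were apart, with H3.3K27L the lowest. The log2 fold change was 4.92 (SE 0.34, edgeR adjusted p 6.1e-10), 4.77 (SE 0.33, 7.8e-10) and 3.45 (SE 0.36, 2.7e-07).

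Crabp1, the other cytoplasmic RA-binding protein, was called in the mutant lines only, and the difference in response between lines, tested below, was not called. In ESCs its lowest, median and highest levels were 5.72, 10.4 and 15.5 CPM in WT-H3.3, 5.32, 10.2 and 14.2 CPM in H3.3K27M, and 0, 5.6 and 14 CPM in H3.3K27L. RA-treated libraries were at 10 and 21.9 CPM in WT-H3.3, at 27.8 and 33.2 CPM in H3.3K27M and at 40.4 and 53.8 CPM in H3.3K27L. In WT-H3.3 the library at 24 h lay inside the ESC range and that at 72 h above it, whereas both libraries of each mutant line lay above their ESCs. The log2 fold change was 0.60 in WT-H3.3 (SE 0.40, edgeR adjusted p 0.231), 1.72 in H3.3K27M (SE 0.36, 6.3e-04) and 2.88 in H3.3K27L (SE 0.36, 2.6e-06). Without the WT-H3.3 library at 72 h the first of these was -0.03 (SE 0.52), so the WT-H3.3 value rests on that library.

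Aldh1a2, the enzyme that makes RA from retinal in the embryo, was called in WT-H3.3 and H3.3K27M only. Its difference in response between H3.3K27L and WT-H3.3, tested below, was called only with the Dox time as a term. Its lowest, median and highest ESC levels were 2.47, 3.63 and 4.48 CPM in WT-H3.3, 2.0, 4.4 and 5.58 CPM in H3.3K27M, and 0, 6.22 and 8.88 CPM in H3.3K27L. After RA it stood at 12.5 and 19.3 CPM in WT-H3.3, at 18.6 and 13.4 CPM in H3.3K27M and at 5.94 and 7.56 CPM in H3.3K27L. Both H3.3K27L libraries lay within the range of their ESCs, and the other 4 lay above theirs. The log2 fold change was 2.18 (SE 0.27, edgeR adjusted p 2.6e-06) and 2.09 (SE 0.27, 2.9e-06) in WT-H3.3 and H3.3K27M, and 0.11 (SE 0.31, 0.865) in H3.3K27L. The H3.3K27L ratios to ESCs were 0.895 (0.646 to 1.22) at 24 h and 1.14 (0.729 to 1.71) at 72 h, against 3.55 (2.68 to 4.64) and 5.47 (3.91 to 7.5) in WT-H3.3. Without replicate 1 of H3.3K27L ESCs at 72 h, where the shallowest library is then alone, the fitted H3.3K27L value was 2.17 (SE 1.61, adjusted p 0.65).

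Stra8, which germ cells need to enter meiosis and which RA induces there, was already present in ESCs, from 0.864 to 19.6 CPM with a median of 4.52. After RA it stood at 35.2 and 57.8 CPM in WT-H3.3, at 21.1 and 82.0 CPM in H3.3K27M and at 14.3 and 40.2 CPM in H3.3K27L. In every line both libraries lay above the ESCs of the line, and the level at 72 h was the higher. At 24 h the margin was narrow in H3.3K27M, where the highest ESC library reached 19.6 CPM, and in H3.3K27L, where it reached 13.5 CPM through 1 count of the shallowest library and 7.51 CPM otherwise. The log2 fold change was 3.51 (SE 0.53, edgeR adjusted p 2.3e-05) in WT-H3.3, 2.39 (SE 0.53, 0.00111) in H3.3K27M and 2.84 (SE 0.58, 5.4e-04) in H3.3K27L. Without its library at 72 h the H3.3K27M value was 1.11 (adjusted p 0.212). The summed level of 6 germ cell and meiosis markers was 219 to 244 CPM at 24 h and 72.0 to 110 CPM at 72 h, against 54.2 to 160 CPM in ESCs, and of these markers 3 were called higher and 3 lower at 24 h, and 0 higher and 3 lower at 72 h.

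With the 3 lines in a single model and each time set against ESCs of that time, with the line as a term, all 9 genes were called higher at 24 h and at 72 h. Of all genes tested, 23.2% were called higher at 24 h and 26.1% at 72 h. As above, a call of Cyp26a1, Cyp26b1, Rarb or Stra6 could only be higher. The members' medians were 5.07 and 4.43, on the log2 scale, beside medians of -0.01 and -0.23 for all genes. The smallest changes at 24 h were those of Aldh1a2 (log2 fold change 1.41, SE 0.32, edgeR adjusted p 3.1e-04), Crabp1 (1.47, SE 0.43, 0.00343) and Stra8 (1.76, SE 0.43, 6.1e-04). The calls at 24 h of Crabp1 and Aldh1a2 each rest on 1 library. Without the H3.3K27L library Crabp1 was at 0.66 (adjusted p 0.216), and without the H3.3K27M library Aldh1a2 was at 0.90, under the fold threshold.

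In the step from 24 to 72 h the members went in different directions. Cyp26b1 and Stra8 rose further, Rarb fell and the other 6 were not called, whereas 14.4% of all genes tested were called higher and 26.4% lower. Cyp26b1 was 9.06 times higher at 72 h in WT-H3.3 (8.2 to 10), 3.47 times (3.27 to 3.68) in H3.3K27M and 42 times (33.5 to 53.4) in H3.3K27L. It was thus higher at 72 h in 3 of 3 lines, with a log2 difference of 3.31 (SE 0.39, edgeR adjusted p 2.8e-08). Rarb at 72 h was 0.14 of its level at 24 h in WT-H3.3 (0.0442 to 0.34), 0.0518 in H3.3K27M (0.0106 to 0.152) and 0.113 in H3.3K27L (0.0228 to 0.347). It was lower in 3 of 3 lines, with a log2 difference of -3.33 (SE 0.57, adjusted p of edgeR 1.2e-05). Stra8 was higher by 1.64 (1.31 to 2.06), 3.88 (3.33 to 4.52) and 2.81 (2.17 to 3.64) times, a log2 difference of 1.30 (SE 0.49, edgeR adjusted p 0.025). Its call was lost without the 72 h library of H3.3K27L (1.19, adjusted p 0.0718), the 24 h library of H3.3K27M (0.86, 0.177) or the 72 h library of WT-H3.3 (1.11, 0.0992).

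Cyp26a1, 0.78 higher at 72 h on the log2 scale (SE 0.24, edgeR adjusted p 0.00589), and Stra6, 0.87 lower (log2 difference -0.87, SE 0.33, 0.0254), passed the adjusted p but not the fold threshold, with the same direction in 3 of 3 lines. The differences of Dhrs3 (-0.22), Crabp1 (0.52), Crabp2 (0.03) and Aldh1a2 (0.13) were close to or below their SE (0.36, 0.50, 0.39 and 0.38), and those of Dhrs3, Crabp2 and Aldh1a2 went in different directions in different lines. Over all genes the log2 difference between the times moved with the length of the exons, with medians of 0.28 in the shortest of 4 equal length classes, then -0.17 and -0.48, and -0.72 in the longest. The RA over ESC changes moved with length too. From the shortest to the longest class their medians ran from -0.54 to 0.41 at 24 h. At 72 h they ran from 0.07 to -0.38. In the step between the times, against the median of its own class, Cyp26b1 was 3.79 higher and Stra8 1.02 higher. Rarb stood at -3.16, while Stra6 (-0.15) and Cyp26a1 (0.50) stood closer to theirs. Whether the kit of the libraries has a part in this was not tested.

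**Figure D3:**
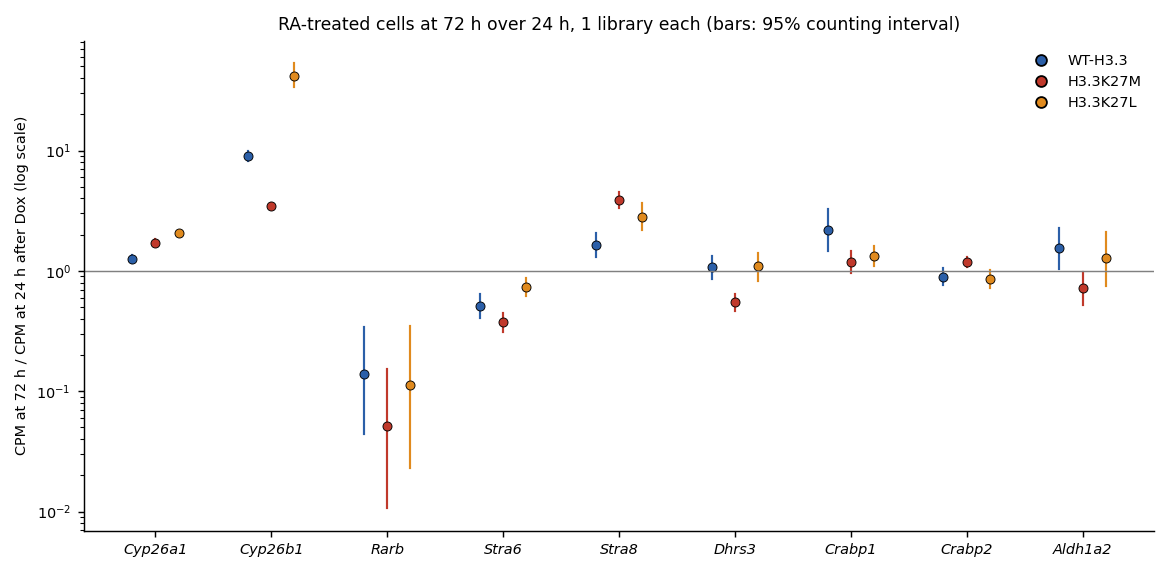
Ratio of the CPM at 72 h to that at 24 h after Dox in the RA-treated cells of each line, on a log axis, with 1 library at each time and bars for the 95% counting interval. Cyp26b1 lies above the line of no change and Rarb below it in all 3 lines, while Crabp2, Dhrs3 and Aldh1a2 lie on both sides.

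The difference of the RA response between lines was tested next, as the RA over ESC change of a mutant line less that of WT-H3.3. None of the 9 genes was called for H3.3K27M or H3.3K27L by edgeR, and neither was any other gene (0.0% of all genes), with 260 and 680 of all genes at an unadjusted p under 0.05. DESeq2 called 4 and 15 genes, no member among them. In that model the 2 RA-treated libraries of a line are replicates, so that the change from 24 to 72 h enters the spread. With the Dox time of the RA-treated cells as a term, 1 member was called for H3.3K27L, where 0.166% of all genes were called. This was Aldh1a2, whose response was lower than in WT-H3.3 by a log2 difference of -2.07 (SE 0.41, adjusted p 0.032), against -2.07 (SE 0.44, adjusted p 0.27) without the term. Without replicate 1 of H3.3K27L ESCs at 72 h, which leaves at that time only the shallowest library, with no Aldh1a2 count, the value without the term was 0.03 (SE 0.38, adjusted p 1). It was -2.08 without the shallowest library itself. In the other direction the fitted difference of Cyp26a1 was 2.78 (edgeR adjusted p 1), which rests on the 1 count in H3.3K27L ESCs. That of Crabp1 was 2.28 (SE 0.58, edgeR adjusted p 0.499), and 2.32 (SE 0.50, 0.0659) with the term.

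Within the 6 RA-treated libraries, no member was called between lines (0.0% of all genes for either mutant), with 15 genes for H3.3K27M and 187 for H3.3K27L at an unadjusted p under 0.05, and DESeq2 called 0 and 5 genes. The common dispersion of this model was 0.459, and it was 0.0177 once the Dox time was a term. With that term 3 of the 9 genes were called between H3.3K27L and WT-H3.3, as were 3.68% of all genes. Dhrs3 was lower in H3.3K27L, at 0.483 (0.396 to 0.587) of the WT-H3.3 level at 24 h and 0.488 (0.365 to 0.651) at 72 h, a log2 difference of -1.06 (SE 0.24, edgeR adjusted p 0.0219). Aldh1a2 was lower too, at 0.475 (0.319 to 0.703) and 0.392 (0.23 to 0.653) of WT-H3.3, a log2 difference of -1.22 (SE 0.32, adjusted p of edgeR 0.0418). Crabp1 was higher, by 4.03 (3.0 to 5.5) and 2.46 (1.8 to 3.43) times, a log2 difference of 1.65 (SE 0.24, edgeR adjusted p 0.00309). The 3 differences had the same direction at both times. Of 9 tested genes in the separate list of other enzymes of retinal and RA synthesis and breakdown, 0 were called in that model, with a median log2 difference of 0.11, against 0.01 for all genes.

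Of the other members, Cyp26a1 (log2 difference 0.87, edgeR adjusted p 0.0189), Stra8 (-0.96, 0.0494) and Crabp2 (-0.67, 0.0453) passed the adjusted p in that model but not the fold threshold. Cyp26b1 in H3.3K27L was 0.112 (0.0868 to 0.142) of the WT-H3.3 level at 24 h and 0.518 (0.483 to 0.555) at 72 h, so that its gap was mostly at 24 h, and it was not called (-1.65, SE 0.52, adjusted p 0.0795). For H3.3K27M the term gave no call of a member, where 0.0163% of all genes were. The nearest was Crabp1 (1.01, SE 0.24, edgeR adjusted p 0.188), at 2.77 (2.09 to 3.74) times the WT-H3.3 level at 24 h and 1.52 (1.08 to 2.16) times at 72 h. This comparison has 2 residual degrees of freedom and 1 library for each line and time. The extraembryonic endoderm markers moved with the lines as well, with sums of 8950 CPM at 24 h and 2010 CPM at 72 h in WT-H3.3, 2570 and 1390 CPM in H3.3K27M, and 19100 and 4860 CPM in H3.3K27L. Col4a1, whose levels are given above, was a large part of these sums. In the same order of lines, the neural progenitor markers summed to 315 and 150, 509 and 150, and 178 and 85.6 CPM, and the pluripotency markers to 178 and 115, 141 and 123, and 369 and 276 CPM. The OPC markers summed to 169 and 70.3, 102 and 59.1, and 325 and 176 CPM. Between H3.3K27L and WT-H3.3, with the term, 6 of 7 tested endoderm markers and 3 of 6 pluripotency markers were called higher, and 2 of 5 neural progenitor markers lower. The part of such cells in the line differences was not tested.

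In undifferentiated ESCs, the 4 genes at the trace levels given above, Cyp26a1, Cyp26b1, Rarb and Stra6, did not pass the filter on low counts in any line, and the other 5 were tested. None of the 5 was called for H3.3K27M (0.0142% of all genes called), H3.3K27L (3.46%) or GSK343 (0.0%, with 621 genes at an unadjusted p under 0.05 and none called by edgeR) against WT-H3.3. Stra8 was the nearest in H3.3K27M, where its lowest, median and highest levels were 3.53, 8.11 and 19.6 CPM, against 2.54, 3.96 and 6.52 CPM in WT-H3.3. The ranges overlapped, with the mutant the higher in median. The log2 difference was 1.25 (SE 0.33, edgeR adjusted p 0.152), and it was called without replicate 1 of H3.3K27M at 4 h (1.44, adjusted p 0.0375), without replicate 1 at 8 h (1.41, 0.0232) or without the filter (1.22, 1.83e-06). Aldh1a2 was higher in H3.3K27L by 0.83 on the log2 scale (SE 0.18, edgeR adjusted p 0.00465), under the fold threshold. With GSK343 the 5 log2 differences ran from -0.36 (Aldh1a2, SE 0.19) to 0.18 (Crabp1, SE 0.22).

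OPCs showed a different set of these genes. Only Cyp26b1 stayed high, at 157 CPM at 24 h and 177 CPM at 72 h in WT-H3.3 and at 91.4 and 78.4 CPM in H3.3K27M, while Cyp26a1 stood at 0.0919 and 0.429 CPM in WT-H3.3 and at 0 in H3.3K27M. Rarb and Stra8 had no count in any of the 4 libraries, which allows, for 3 counts, at most between 0.276 and 0.443 CPM in a library. Thus the RA breakdown enzymes, which rose together after RA, were apart here. Against ESCs of the line, Cyp26b1 was 1080 (632 to 2040) and 1220 (711 to 2290) times higher in WT-H3.3 and 713 (360 to 1660) and 612 (308 to 1420) times in H3.3K27M (edgeR adjusted p 1.3e-14 and 8.8e-14). Of the 6 genes tested, 1 was called higher and 2 lower in WT-H3.3 and 1 higher and 5 lower in H3.3K27M, beside 31.3% higher and 37.0% lower of all genes in WT-H3.3 and 29.3% and 36.9% in H3.3K27M. Cyp26b1 passed the filter on low counts through the OPC libraries, and Stra8, Crabp2 and Dhrs3 through the ESC libraries. The direction of their calls was thus fixed in advance. Besides Stra8, those lower were Crabp2 in WT-H3.3 (log2 fold change -1.54, SE 0.54, edgeR adjusted p 0.0148), and Crabp2, Aldh1a2, Dhrs3 and Crabp1 in H3.3K27M. The Crabp2 call in WT-H3.3 was lost without either OPC library of the line, and the Crabp1 call in H3.3K27M without the OPC library at 72 h (-1.09, edgeR adjusted p 0.0792).

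Between the OPC lines, 2 of the 3 genes tested were called, both lower in H3.3K27M, where 28% of all genes were called and 15% called lower. Crabp1 stood at 16.4 and 13.2 CPM in WT-H3.3 and at 4.13 and 2.66 CPM in H3.3K27M, a log2 difference of -2.11 (SE 0.29, edgeR adjusted p 1.4e-04). Aldh1a2 stood at 4.59 and 5.68 CPM in WT-H3.3 and at 0.148 and 0.14 CPM in H3.3K27M, which is 1 count in each of these libraries. The ratios of H3.3K27M to WT-H3.3 were 0.0321 (0.000798 to 0.187) at 24 h and 0.0246 (0.000611 to 0.143) at 72 h, with an edgeR adjusted p of 5.0e-05. Neither pair of libraries overlapped the other. Cyp26b1 was lower by a log2 difference of -0.97 (SE 0.14, adjusted p of edgeR 2.5e-04), just short of the fold threshold, and was called without the 24 h library of H3.3K27M (-1.10, 7.55e-06) or of WT-H3.3 (-1.07, 1.34e-05). Dhrs3 at 1.29 and 0.965 CPM against 0.148 and 0.28 CPM, Crabp2 at 0.735 and 1.07 CPM against 0 and 0.14 CPM, and Stra6 at 0.919 and 0.215 CPM against 0 were too low for the filter. Markers of cell types differed between the lines as well. The 8 fibroblast markers summed to 602 and 658 CPM in WT-H3.3 OPCs and to 31.4 and 27.8 CPM in H3.3K27M, and the 9 extraembryonic endoderm markers to 563 and 672 CPM and to 55.5 and 45.3 CPM, with Afp at 0 in H3.3K27M. The 6 OPC markers, none at 0, summed to 575 and 540 CPM in WT-H3.3 and to 1790 and 2020 CPM in H3.3K27M, and the 8 neural progenitor markers to 882 and 907 CPM and to 2010 and 2140 CPM. Of the latter, Map2 ran from 599 to 1780 CPM over the 4 libraries and Nes only from 223 to 239 CPM. Of the endoderm markers, Col4a1 ran from 20.6 to 472 CPM. The part of these cells in the differences was not tested.

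The other genes of the retinoid pathway were read from lists of 48 genes, of which 47 were matched. Of 13 genes known as RA targets, most of them for transcription factors, 12 were tested, with 10 called higher and 1 lower at 24 h and 11 higher and 1 lower at 72 h against ESCs of that time. Of all genes tested, 23.2% were called higher and 19.9% lower at 24 h. At 72 h these shares were 26.1% and 32.6%. Nr2f1 (log2 fold change 8.42 at 72 h, SE 0.37) and Nr2f2 (9.36, SE 0.49), which encode orphan nuclear receptors, and Meis1 (6.63, SE 0.39), which encodes a homeodomain factor, were among those with the lowest edgeR adjusted p-values (5.6e-18, 2.1e-16 and 3.0e-15). Cdx1 was the gene that fell, by 5.18 on the log2 scale at 72 h (SE 0.40). Of 12 tested enzymes of retinal and RA synthesis and breakdown, 6 were called higher at 24 h and 7 at 72 h, and 0 lower. Rdh10, which oxidises retinol to retinal, rose from at most 7.59 CPM in the 24 ESC libraries without GSK343 to between 136 and 238 CPM at 72 h (log2 fold change 5.06, SE 0.17, edgeR adjusted p 2.1e-20). Aldh1a7 rose from at most 0.173 CPM to between 2.12 and 10.4 CPM at 72 h, and Aldh1a1 from at most 0.333 CPM to between 2.57 and 2.74 CPM (edgeR adjusted p 4.5e-10 and 1.5e-07). Both encode aldehyde dehydrogenases of the same family as Aldh1a2. Adh1, an alcohol dehydrogenase that can oxidise retinol, rose as well (log2 fold change 2.76, SE 0.52, edgeR adjusted p 2.3e-05). Aldh1a1, Aldh1a7, Adh7 and Cyp26c1 averaged 0.123 CPM or less in those 24 ESC libraries. Hoxb1 and Hoxa4, of the target list, averaged 0.0949 and 0.217 CPM. These genes passed the filter on low counts through the RA-treated libraries. A call of theirs could only be higher, so their calls and p-values are no independent support.

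Of 6 tested genes of retinol uptake, transport and storage, 3 were called higher and 2 lower at 24 h, and 5 higher and 1 lower at 72 h. Of all genes, 23.2% were called higher at 24 h and 26.1% at 72 h, as given above. The genes called higher at 72 h included Rbp4, the retinol carrier of blood (log2 fold change 6.83 at 72 h, SE 0.58), Ttr, its partner, which went from at most 0.173 CPM in ESCs to between 1.52 and 4.54 CPM, and Fabp5, a carrier of fatty acids and RA (2.01, SE 0.23). Ttr passed the filter on low counts through the RA-treated libraries too, so its call could only be higher. Of 4 tested receptors, Rxra alone was called at 24 h (1.11, SE 0.23), and at 72 h Rara (-1.51, SE 0.20) and Rarg (-3.83, SE 0.31) were called lower, 2 of 4 beside 32.6% of all genes. Rarg went from between 40.6 and 120 CPM in those ESC libraries to between 3.33 and 8.84 CPM at 72 h. Of the 8 receptor coregulators, 1 was called higher at each time, Nrip1 (1.65 at 72 h, SE 0.30), a corepressor, and at 72 h 4 of the 8 were called lower, beside the same 32.6% of all genes, among them Ncoa3 (-2.52, SE 0.25), Ncoa1 (-1.64, SE 0.30) and Ep300 (-1.27, SE 0.26). The comparisons at 24 and 72 h share no library, but they come from 1 fitted model.

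**Figure D4:**
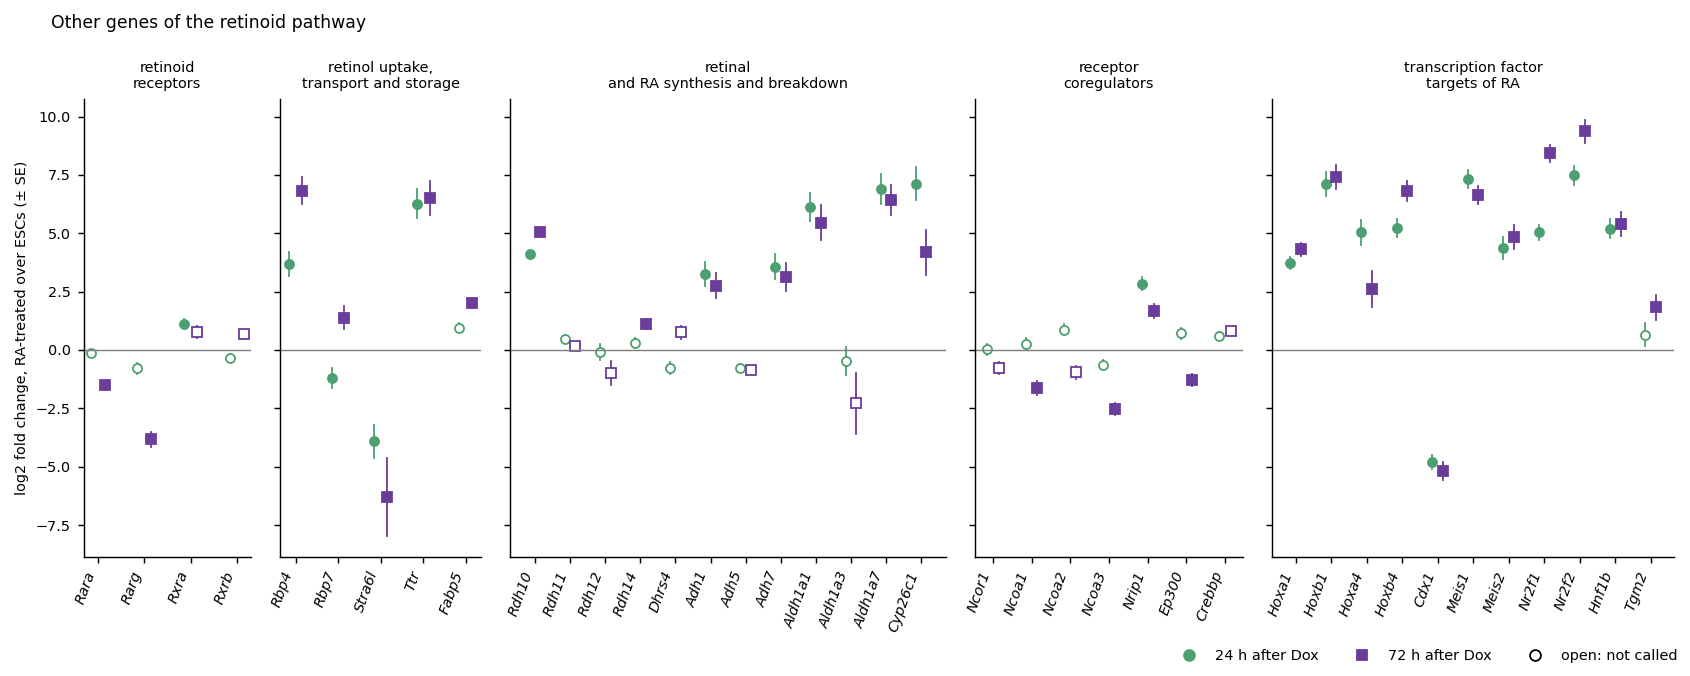
Log2 fold change of RA-treated cells over ESCs (± SE) for tested genes of the retinoid lists, at 24 h (circles) and 72 h (squares) after Dox, with open symbols for genes that were not called. Most transcription factor targets lie above 2.5 at both times, and Rara and Rarg lie below 0 at 72 h.

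Over the 42 libraries and 12745 genes that averaged 1.0 CPM or more, the genes most like Cyp26a1 by the Pearson correlation of log2(CPM + 0.5) were Car4 (r = 0.993), Stra6 (0.979) and Smoc2 (0.971). Those most like Rarb were Peg10 (0.956), Glipr1 (0.953) and Hapln1 (0.951), of which Glipr1 stood at 10.9 to 26.1 CPM at 24 h and 2.74 to 3.43 CPM at 72 h after RA and at 0.459 CPM or less elsewhere. Stra8 had no such close match, with Gpc3 (0.869), Arhgef16 (0.863) and Rras2 (0.859) as its nearest. These coefficients describe how the genes separate ESCs, RA-treated cells and OPCs, and the libraries of a state share their culture and possibly their kit.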

How the data were processed

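Gene counts were deposited by the authors as whole-number raw counts, in a table each for the ESC, RA-treated and OPC libraries (42 in all). Reads had been aligned with STAR version 2.7.1 to mm9. The counting program, annotation and use of strand are not given in the sources used here. The 9 genes and the gene lists were chosen with earlier results of these data known. Genes were matched by gene ID to the mm9 annotation (32589 of 55471, holding 98.17% of counts), and 1435 genes of chromosome 8 (5.78% of counts) were left out, as in the methods of the study, which name a possible duplication of that chromosome in its clones.

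Counts were scaled by TMM, filtered with filterByExpr and tested with the quasi-likelihood test of edgeR 4.0.16 (R 4.3.3, limma 3.58.1), with Benjamini-Hochberg adjustment over all genes tested, which were 12265 to 15627. ESCs had a mean for each line and time after Dox, averaged over times for a comparison, and the libraries of RA-treated cells or of OPCs of a line were pooled over time unless a time is named. DESeq2 1.42.0 was an alternative. Nothing says that replicates came from separate clones, so p-values measure the spread between these libraries. No pair of libraries agreed within sampling noise, the smallest chi-square per gene being 1.853. Intervals are exact conditional binomial (95%), computed with SciPy 1.17.1. Likeness used log2(CPM + 0.5). The tests were tested on simulated data. Figures were drawn with Matplotlib 3.10.9. The rule for named genes was all 9 members, for each other retinoid list the called genes with the lowest adjusted p at 72 h, and the 3 genes most like Cyp26a1, Rarb and Stra8. Cdx1, Ep300, Rxra, Adh7, Cyp26c1, Hoxb1 and Hoxa4 were named after their values were seen. So were the markers Pdgfra, Olig1, Olig2, Sox10, Nkx2-2, Cspg4, Map2, Nes, Tubb3 and Col4a1. Some genes of the lists are counted but not reported by name here. Same-numbered ESC replicates of WT-H3.3 and H3.3K27M deviated together at each time (r from 0.607 to 0.713 over 8525 genes), those of WT-H3.3 and H3.3K27L did not (-0.708 to 0.262), nor did those with and without GSK343 (-0.459 to 0.587).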

Additional observations from a re-analysis of the deposited data

Results flagged for a closer look

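In 3 of 36 sets of 8 ESC libraries of a gene, the highest library lay apart from the others by more than 0.526 of the range, and chance gives about 1 in 20. They were Cyp26a1 in replicate 1 of H3.3K27L at 24 h (0.143 CPM, 1 count, the other 7 at 0), Stra6 in replicate 2 of GSK343-treated cells at 72 h (0.38 CPM, 2 counts) and Stra6 in replicate 1 of H3.3K27L at 72 h (0.329 CPM, 2 counts). All 3 are under a floor of 3 counts.

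For 3 genes, every OPC library of H3.3K27M lay below the mean of its ESCs and every OPC library of WT-H3.3 above it, and this difference was not tested. As OPC less ESC on the scale of log2(mean CPM + 0.5), the values were -0.56 in H3.3K27M and 0.79 in WT-H3.3 for Stra6, -1.39 and 0.48 for Crabp1, and -2.8 and 0.47 for Aldh1a2. Stra6 had no count in the H3.3K27M OPC libraries and was under the same floor in the WT-H3.3 library at 72 h. Its side of the ESC mean cannot be told in these libraries. How many of all genes show this pattern was not counted, and many genes were called between the OPC lines, as given above.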

How the results depend on the processing

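Of the counts of called members, 119 values under other settings stayed within 1.5 times and 6 moved. With the Dox time of RA-treated cells as a term, 1 member differed in RA response between H3.3K27L and WT-H3.3, and 3 differed between these lines within RA-treated cells, against 0 for each without it. Without the fold threshold, 5 members in place of 3 differed between 72 and 24 h of RA, and 1 (Aldh1a2) between H3.3K27L and WT-H3.3 ESCs. Without the filter on low counts, Stra8 became the 1 member called in H3.3K27M ESCs and 5 of 7 between the OPC lines. Leaving out 1 library at a time moved the count for H3.3K27M against WT-H3.3 ESCs between 0 and 1. The RA over ESC counts ran from 8 to 9 in H3.3K27M, from 7 to 8 in H3.3K27L and from 8 to 9 at 24 h, and that between 72 and 24 h ran from 2 to 4. Between the OPC lines it ran from 2 to 3, and against ESCs the OPC counts ran from 2 to 3 in WT-H3.3 and from 5 to 6 in H3.3K27M. The counts of the other comparisons did not move. The values of single members reversed in 4 such fits. Crabp1 in WT-H3.3 RA-treated cells ranged from -0.03 to 1.01, Aldh1a2 in H3.3K27L RA-treated cells from -0.04 to 2.17, its difference in RA response from -2.29 to 0.03, and its difference between H3.3K27L and WT-H3.3 ESCs from -1.21 to 0.91. The values 2.17, 0.03 and -1.21 come without replicate 1 of H3.3K27L ESCs at 72 h, which leaves the library of 68378 counts alone at that time. With a single ESC mean for each line, an alternative chosen after seeing the data, the difference in RA response was -2.14 (edgeR adjusted p 0.111).

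With DESeq2's size factors the median of all genes moved from -0.01 to 0.31 in RA-treated WT-H3.3 cells against ESCs, from 0.05 to 0.30 in H3.3K27M, from 0.0 to 0.31 in H3.3K27L, from -0.23 to 0.17 at 72 h and from -0.34 to -0.12 between 72 and 24 h. The share of calls that were higher went from 56.4% to 68.2%, 58.3% to 67.1%, 57.3% to 68.4%, 44.5% to 55.5% and 35.3% to 46.2% in the same order. No member changed direction, and Cyp26a1 was then called between 72 and 24 h (1.01). The fit with the replicate number as a block changed no call of a member. Same-numbered ESC replicates of WT-H3.3 and H3.3K27L deviated in opposite ways at 4, 8 and 24 h (r = -0.598, -0.708 and -0.676). The block thus cannot show whether a replicate effect bears on H3.3K27L. Stra8 between H3.3K27M and WT-H3.3 ESCs was 1.13 (edgeR adjusted p 0.0674) with the block, and 1.19 (0.1) when only these libraries were fitted, an alternative chosen after seeing the data. No paired analysis was possible for RA-treated cells because every library is replicate 1, and none was run for OPCs, whose numbers are not clear from the labels. The shallowest library bears no weight for genes under its floor.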

Other observations

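The promoter repeat with a gap of 5 bases was in windows of 31 genes, of which 11 were in the count tables and 5 could be tested. Beside Cyp26a1 and Rarb these were Hbb-y, an embryonic globin, Ppbp, a platelet chemokine, and Blvrb, a biliverdin reductase, all named after their values were seen. Of the 5 genes, 4 were called higher and 1 lower in RA-treated cells at 24 h, and 4 higher and 0 lower at 72 h. Of all genes tested, 23.2% were called higher and 19.9% lower at 24 h, and 26.1% and 32.6% at 72 h. Cyp26a1 and Rarb are members and could only be called higher, so the count does not show that the repeat goes with a rise. Blvrb was the one lower, with a log2 fold change of -2.11 at 24 h (edgeR adjusted p 2.8e-07) and -0.98 at 72 h (0.00513).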
